A study of Caenorhabditis elegans with 2 samples.

Results

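The authors' optimal list of ZTF-26-GFP peaks, thresholded by irreproducible discovery rate, held 1929 peaks on the ce11 genome of Caenorhabditis elegans. Of these, 240 had their summit in an exon of a protein-coding gene. A peak was counted when its summit lay in a coding, 5' untranslated or 3' untranslated stretch of an exon of any protein-coding transcript, over 100 bp from every tRNA gene. Of 246 exonic summits, 6 lay nearer to a tRNA gene and were left out. ZTF-26 is a zinc finger protein, and its binding was measured by chromatin immunoprecipitation and sequencing (ChIP-seq) with an anti-GFP antibody in whole young adults of strain OP565, unc-119(tm4063) III; wgIs565, collected 56 hours after synchronization. In that line a stably expressed ZTF-26 carries GFP and FLAG at its C terminus, and both sexes were pooled. The series has 2 biological replicates, numbers 3 and 4, of this 1 genotype and stage, so no treatment or mutant was compared and the tissue behind a peak cannot be told from whole worms.

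An exon is a stretch of a gene that stays in the spliced RNA. The first exon begins at the transcription start and often holds the 5' untranslated region, or UTR, which is read before the start codon. The last exon ends at the poly(A) site and holds the 3' UTR. Transcription factors are known mostly for sites in promoters, next to the start of transcription. In the compact nematode genome the end of a gene can lie within the promoter of its neighbour. Many C. elegans transcripts also receive a spliced leader in place of their own first bases, so an annotated 5' end can lie downstream of the true start.

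The 240 summits fell in 235 distinct intervals of 217 host genes, on all 6 chromosomes. In 196 cases the summit was exonic in every annotated protein-coding transcript across it, and in 44 it lay in an intron or outside of some other transcript. A single summit lay in exons of 2 genes. Since the optimal list held exactly the 1929 pooled peaks of highest signal, the smallest signal among the exonic peaks was set by the list. The weakest exonic peaks inside it were col-42 at 90.2, srg-21 at 90.4 and ZK1128.7 at 90.6. The strongest exonic candidates outside it were pgal-1 at 89.7, F55C7.2 at 89.4 and elpc-2 at 89.4. Signal is the authors' own value per peak, without a stated scale, and the number of reads behind it is unknown. The tagged gene ztf-26 itself held 0 pooled candidates, and unc-119 held 2, of which 1 was exonic with a signal of 24.5.

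The stretches below show the bases that recurred in or near strong exonic summits. Each is 30 bases of the WBcel235 reference genome from RefSeq, the build of the ce11 peaks, printed 5' to 3' on the strand where the word reads as spelled. Capitals mark a 7-base word, and the words came from earlier work on these same peaks, so their presence is a description without a test. The 5' UTR of zip-11, a bZIP transcription factor gene, at IV:3311406-3311435, and the 3' UTR of C05D11.8 at III:6421211-6421240 held ACGCAGA, both on the minus strand. The 5' UTR of srh-2, a chemoreceptor gene, at V:731483-731512 on the plus strand held GAGACGC. Near the 5' UTR summits of Y43F8B.2, at V:19522860-19522889, and F44E7.5, at V:5780902-5780931, both on the minus strand, the word was CTCTCTC. In Y43F8B.2 the word was centred 13 bp upstream of the annotated start, outside the exon, and in F44E7.5 it was centred 6 bp downstream of it. The collagen gene col-140 at V:5836292-5836321 on the minus strand and col-122 at IV:9564171-9564200 on the plus strand held CACGTGG within their coding last exons. An internal coding exon of Y42A5A.1 at V:11094919-11094948 on the plus strand held CACGTGA at 1 bp from the summit. The other words shown were centred 3 bp from the summit in col-122, 13 bp in srh-2 and 15 bp in zip-11. In C05D11.8 and F44E7.5 the distance was 16 bp, in Y43F8B.2 38 bp and in col-140 47 bp.
zip-11: ccggcgtgagagACGCAGAgataggtcggt
C05D11.8: gacgccgtggagACGCAGAcagtgagggcc
srh-2: cgcgagacgaaGAGACGCcgggcagcacga
Y43F8B.2: ctcgcaacgtctCTCTCTCgtattctctcc
F44E7.5: ctcgtgcgcacaCTCTCTCgcttaggccct
col-140: gacgtccaggacCACGTGGaccaccaggag
col-122: accacgtggacCACGTGGagttgctggaat
Y42A5A.1: ttccagtgattCACGTGAatcgaaaagaag

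Both of the strongest exonic peaks lay over windows without any of the 7 words searched. The bases around their summits are shown for that reason, on the strand of the gene, with the summit base in capitals. The first is X:5429564-5429593 in pks-1, and the second is III:3456413-3456442 in C34C12.2.
pks-1: ccaatgcttagcggAcattaaatttagcgc
C34C12.2: actttttgcgcgatGcaagcgcgctccacc

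Exons held a smaller part of the optimal list than of the weaker candidates. Leaving out summits near tRNA genes, 240 of 1719 optimal peaks were exonic, 14.0% (95% exact Clopper-Pearson interval 12.4 to 15.7). The pooled candidates, called from the same reads, carry the authors' label of peaks and background, so they can include background. Among those outside the optimal list, 9623 of 26072 were exonic, 36.9% (36.3 to 37.5). The odds ratio was 0.277, with an adjusted p of 1.28e-93 in a two-sided Fisher's exact test, Benjamini-Hochberg adjusted over 10 comparisons. Exons make up 29.4% of the genome, so the optimal list lay below that share and the weaker candidates above it. Put the other way, 2.43% of exonic candidates were in the optimal list, against 6.19% of all candidates over 100 bp from a tRNA gene. Against the next 1929 candidates by signal alone the odds ratio was 0.488. The share of exonic summits by rank was 8.46% among ranks 1 to 482, 17.7% among ranks 1447 to 1929, 24.9% among ranks 1930 to 3858 and 32.5% in the bin after that. Each peak counts as independent in these tests, which leaves out variation between worm cultures and covers counting error alone. Of the 9623 weaker exonic candidates, 4306 (44.7%) overlapped a candidate in both replicates, against 239 of the 240 exonic optimal peaks. How many of the weaker candidates are binding sites and how many are background is therefore unknown.

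**Figure D1:**
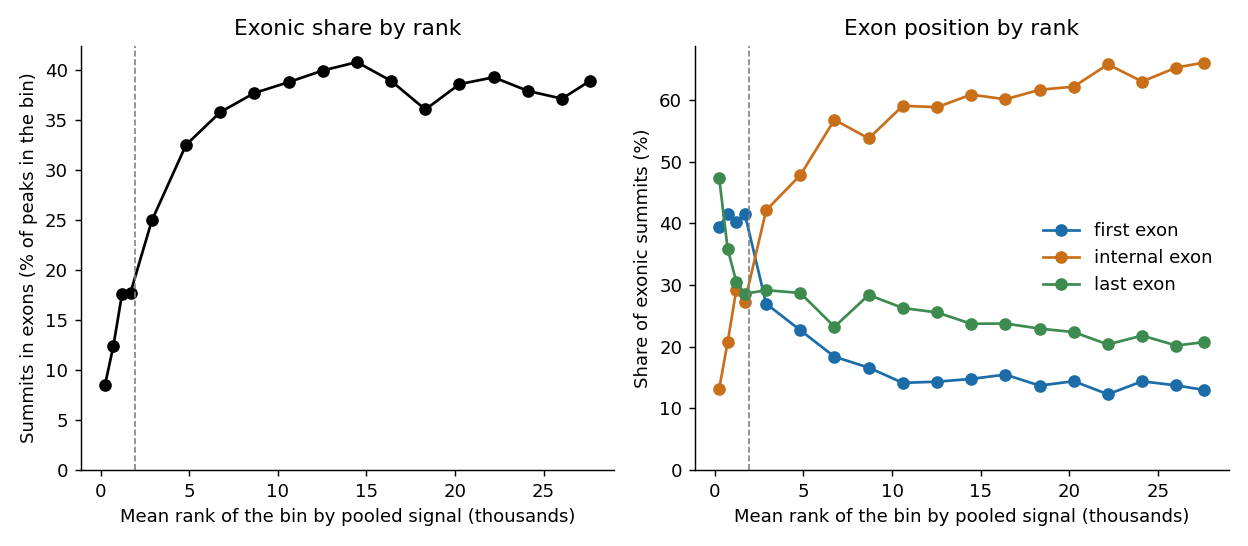
Left, the share of peaks with an exonic summit (%) and, right, the share of exonic summits in first, internal and last exons (%), against the mean rank of each bin of pooled peaks by signal, in units of 1000. The dashed line is the end of the optimal list. The exonic share rises from 8.46% in the strongest bin, and first exons hold 39.5% to 41.6% of exonic summits in each of the 4 bins of the optimal list and 26.97% in the next bin.

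The exonic peaks lay more often in first exons, and less often in internal exons, than the weaker exonic candidates did. Whether their higher share in last exons passed depended on the comparison. First exons held 98 of the exonic peaks, 40.8% (34.6 to 47.3), against 15.7% (15.01 to 16.5) of the weaker exonic candidates. The odds ratio was 3.70, and Fisher's exact test gave an adjusted p of 1.19e-19. Internal exons held 58, 24.2% (18.9 to 30.1), against 59.2% (58.2 to 60.2), an odds ratio of 0.219 with an adjusted p of 8.55e-27. Last exons held 81, 33.8% (27.8 to 40.1), against 24.0% (23.1 to 24.9), an odds ratio of 1.61 with an adjusted p of 0.00126. Genes with a single exon held 3, 1.25% against 1.06%, which did not pass the test (odds ratio 1.18, adjusted p 0.826). These were F18E3.11 with a signal of 140, F18E3.13 with 95.2 and the collagen gene col-119 with 92.7. The weaker candidates lay close to the make-up of annotated exonic sequence, of which 13.1% of bases are in first, 62.2% in internal and 23.9% in last exons. Against the next 1929 candidates by signal, the odds ratio was 1.87 for first exons and 0.438 for internal exons. For last exons it was 1.24 and no longer passed, with an adjusted p of 0.320.

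**Figure D2:**
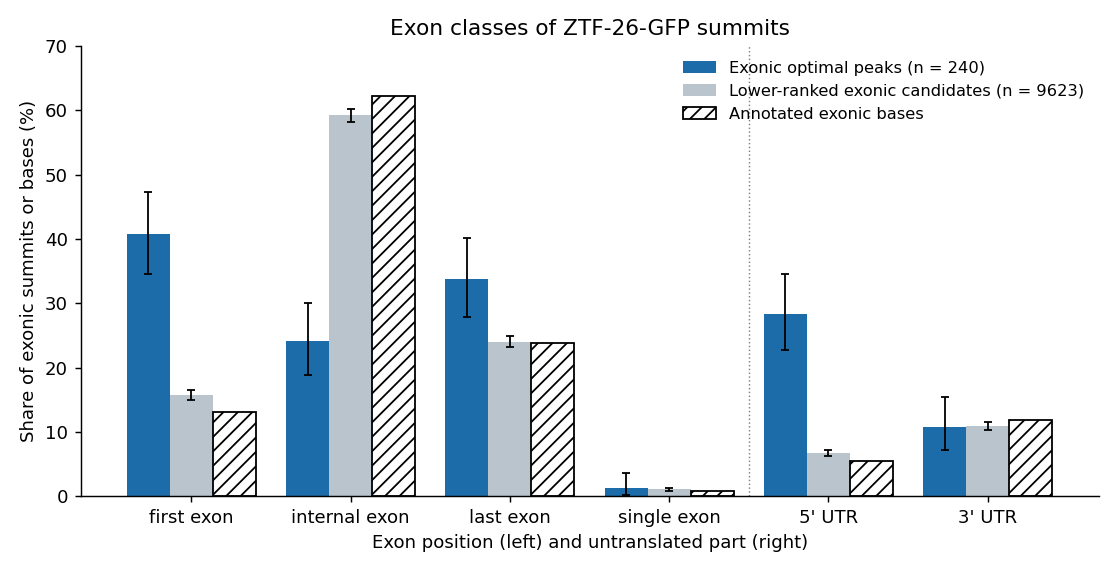
Share of summits (%) in each exon position and in each untranslated part, for the 240 exonic optimal peaks and 9623 lower-ranked exonic candidates with 95% exact intervals as bars, and the share of annotated exonic bases in the hatched columns. First exons and 5' UTRs stand above both other columns, and internal exons stand below them.

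By part of the transcript, 146 summits lay in coding sequence, 68 in 5' UTRs and 26 in 3' UTRs. The 5' UTR share was 28.3% (22.7 to 34.5) against 6.74% (6.25 to 7.26) of weaker exonic candidates, an odds ratio of 5.47 with an adjusted p of 3.84e-23 in Fisher's exact test. With the next 1929 candidates as the comparison it was 2.07. The 3' UTR share was 10.8% (7.20 to 15.5) against 11.0% (10.4 to 11.6), an odds ratio of 0.986 that did not pass (adjusted p 1). Its direction turned under several other settings, up to 1.37 with replicate 4 alone. Of all exonic candidates in the 5' UTR part of a first exon, 9.67% were in the optimal list. That share was 3.71% for the coding part of first exons, 0.907% for coding internal exons, 4.11% for coding last exons and 2.44% for the 3' UTR part of last exons.

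Measured along the whole transcript with its introns, 77 summits (32.1%) lay in the first 10% of its length and 50 (20.8%) in the last 10%. The weaker candidates had 14.8% and 15.4% there. The middle of the gene was the emptiest stretch, with 7 optimal summits (2.92%) between 40% and 50% of the length, where the weaker candidates had 7.97%.

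**Figure D3:**
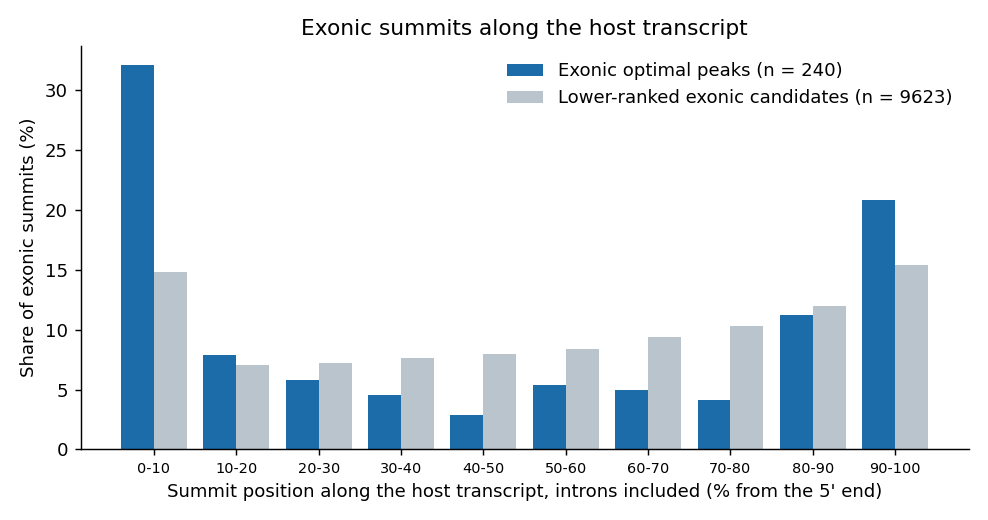
Share of exonic summits (%) in steps of 10% of the host transcript, counted from its 5' end with introns included, for the 240 exonic optimal peaks and the 9623 lower-ranked exonic candidates. The first step holds 32.1% of the optimal summits and the last 20.8%.

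Peaks in first exons sat close to the annotated start. Their median distance from the 5' end of the host transcript was 76 bp, and 55 of 98 lay within 100 bp and 76 within 200 bp. Weaker candidates in first exons had a median of 95.5 bp. Of the 98, 62 were in the 5' UTR and 36 in coding sequence, and 93 lay in the promoter window of the host gene, a stretch of 1000 bp before and 500 bp after an annotated 5' end. Of the weaker first-exon candidates, 94.8% lay in that of their host. Over all exonic peaks, 146 (60.8%, 54.3 to 67.0) lay in the promoter window of some protein-coding gene, against 37.6% of the weaker exonic candidates. The odds ratio was 2.58 and the adjusted p 1.38e-12, and with the next 1929 candidates as the comparison the odds ratio was 1.53. Within first exons the shares were 94.9% and 95.4%, and within last exons they were 29.6% and 28.5%, neither of them tested. For 131 of the 240 (54.6%) the window was that of the host gene itself, against 2888 of the 9623 weaker exonic candidates (95% exact interval 29.1% to 30.9%). For 42 (17.5%) it was that of another gene, against 1183 of those candidates (11.6% to 13.0%). Some summits lay in windows of both kinds, so these counts overlap and do not split the 146. Neither difference was tested.

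The strongest first-exon peak was in the 5' UTR of C34C12.2, at III:3456259-3456572. It had a pooled signal of 565, with 325 in replicate 3 and 238 in replicate 4. Its summit lay 2641 bp into a first exon of 2829 bp and outside every promoter window, unlike the peaks that follow it. The peak of ints-4, which encodes a subunit of the Integrator complex that processes small nuclear RNAs, had a signal of 371, with 223 and 143 in replicates 3 and 4. Its summit was 48 bp from the 5' end. Y43F8B.2 had 356, with 241 and 117, at 25 bp. The summit in atp-1, which encodes the alpha subunit of the mitochondrial ATP synthase, was on the first base of the transcript and had 324, with 217 and 103. A first-exon summit of kin-14, a predicted tyrosine kinase gene, had 300 at 68 bp, with 187 and 110. In all of these, replicate 3 was the higher.

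Further first exons belonged to genes of varied function. T28F4.5 had 226 in its 5' UTR, with 126 in replicate 3 and 100.5 in replicate 4. Y18D10A.4 had a signal of 279 in its coding first exon, at 58 bp from the 5' end. For F44E7.5 the summit was in the 5' UTR, at 22 bp, with a signal of 243, and it also lay within an annotated non-coding RNA gene, F44E7.13, so the 2 genes cannot be told apart. The coding first exon of mdt-26, a gene of the Mediator complex that links transcription factors to RNA polymerase II, had 224 at 21 bp. There replicate 3 had 185 and replicate 4 only 40.4, the widest gap among the strong first-exon peaks named here. tent-5, a terminal nucleotidyltransferase gene, had 224 at 87 bp. egl-30, which encodes the alpha subunit of the G protein Gq, had 2 first-exon summits, of 202 at 29 bp and 136 at 230 bp from its 5' end.

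Peaks in internal exons were fewer than first-exon peaks. Of the 58, 51 were in coding sequence, 6 in a 5' UTR and 1 in a 3' UTR, and 32 lay outside the promoter window of any protein-coding gene. The other 26 (44.8%) lay in such a window, against 1425 of the 5699 weaker internal candidates (95% exact interval 23.9% to 26.2%), a difference that was not tested. The host transcripts had a median of 7 exons. The rank correlation of replicate signals was lowest here. Spearman's rho between replicates 3 and 4 was 0.21 across the 58 internal peaks, 0.48 across the 98 first-exon peaks and 0.59 across the 80 last-exon peaks found in both replicates. These are descriptions across peaks of the same 2 libraries. Neighbouring summits, such as those of col-124 and clec-221, overlapped the same replicate candidates and so enter with the same values. All peaks were also selected by pooled signal, and the order of the exon classes was not tested. The 1929 strongest peaks of both replicates overlapped 32 of the 58 internal peaks (55.2%), 63 of the 98 first-exon peaks (64.3%) and 62 of the 81 last-exon peaks (76.5%).

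The strongest exonic peak of all was internal. It lay in exon 22 of the 30 of pks-1 on the X chromosome, at X:5429352-5429801, and ranked 11 in the pooled list. pks-1 encodes a polyketide synthase, a large enzyme that builds secreted small molecules. The pooled signal was 753, and the replicates had 469 (number 3) and 284 (number 4). The summit was 15768 bp from the 5' end of the gene and 12380 bp from its 3' end, so no annotated end of the gene was near. The next internal peak, in exon 3 of mnk-1, a MAP kinase-interacting kinase gene, had 188, with 118.7 and 79.3, far below pks-1 in both replicates.

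Other strong internal peaks lay at varied distances from any start. The peak in exon 13 of mix-1, which encodes an SMC subunit of condensin, had a signal of 186, with 111 in replicate 3 and 75.2 in replicate 4. Y42A5A.1 had 184, with 110 and 72.7. H40L08.9 had 182, with 89.8 and 94.3, and its summit was 191 bp from the 5' end of the gene. dhc-4, a dynein heavy chain gene, had 175 in exon 32 of 35, where the overlapping replicate candidates had 225 and 108. The peak of icl-1, which encodes the glyoxylate cycle enzyme of worms, had 168 in exon 2, at 241 bp from the 5' end, with 137 and 32.4. Of these, H40L08.9 was the only one with the higher value in replicate 4.

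Peaks in last exons were of 2 kinds, coding and 3' untranslated. Of the 81, 56 were in coding sequence and 25 in 3' UTRs, and the median distance from the summit to the transcript's 3' end was 253 bp, with 254.5 bp for the weaker candidates. Only 13 lay within 100 bp of the 3' end. A further optimal summit lay within 1000 bp for 36 of the 81 (44.4%), against 18 of the 98 first-exon peaks (18.4%) and 14.6% of the other optimal peaks. For last-exon peaks the lower quartile of the distance to the nearest other optimal summit was 217 bp. Pairs in 1 interval or in overlapping intervals, such as those of col-124 and dos-3, count from both sides. Collagen genes held 17 of the 56 coding summits. Without collagen genes in both lists, last exons held 64 of 219 exonic peaks, 29.2%, against 23.5% of the weaker candidates. The odds ratio was then 1.34 and no longer passed, with an adjusted p of 0.0890 in Fisher's exact test. That comparison was chosen after the values were seen.

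Collagens are the structural proteins of the worm's cuticle, which is made anew at each moult. Their genes are short and mostly have 2 exons, and the long second exon encodes the glycine-rich repeat. Of 163 collagen genes, 15 (9.20%) had an exonic optimal peak, against 217 of all 19973 protein-coding genes (1.09%). Among genes with any exonic candidate, the shares were 15 of 106 collagen genes (14.2%) and 217 of 6183 (3.51%). The collagen group was counted by gene name and not tested. Among each replicate's own 1929 strongest peaks, 13 collagen genes had an exonic summit in replicate 3 and 15 in replicate 4.

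The 15 collagen genes held 21 summits, all in coding sequence, with 17 in last exons, 3 in first exons, 1 in a gene with a single exon and 0 in internal exons. Weaker candidates in collagen genes also lay mostly in coding sequence (124 of 132) and in last exons (77, or 58.3%). Of those 132, 18 were in first exons and 26 in internal exons. The collagen gene with the strongest summit was col-124, at IV:10216551-10217415. Its interval had summits of 325 and 185, at 490 and 691 bp from the 5' end of a transcript 1167 bp long, and its replicate values were 217 in replicate 3 and 113 in replicate 4. col-140, at V:5835780-5836642, had summits of 294 and 195, with 166 and 138 in the replicates. col-80, at II:10707598-10708230, had 247 and 96.5, with 165 and 94.1. col-122, at IV:9563444-9564482, had 240 and 213, with 163 and 79.4. Each of these pairs shared 1 interval, so they are not independent peaks. The fifth strongest, col-19, an adult cuticle collagen gene, had 2 last-exon summits of 156 and 112 in separate intervals.

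The other collagen genes had signals from 90.2 to 135, and not all replicates were alike. The first-exon summit of col-42 had 140 in replicate 3 and 24.0 in replicate 4. In col-184, col-129 and col-39 replicate 4 was the higher, for example 87.2 against 48.9 in replicate 3 for col-184. The median G and C content within 50 bp of the summit was 61.4% in collagens and 44.6% in the other exonic peaks, and for weaker candidates in collagens it was 57.4%. In 4 of the 21 windows some 36-base words occurred more than once in the genome, in 37.9% of the words at the stronger col-124 summit and 51.5% in col-160. Reads from such words cannot be placed with certainty. In 17 of the 21 windows there was no repeated word.

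**Figure D4:**
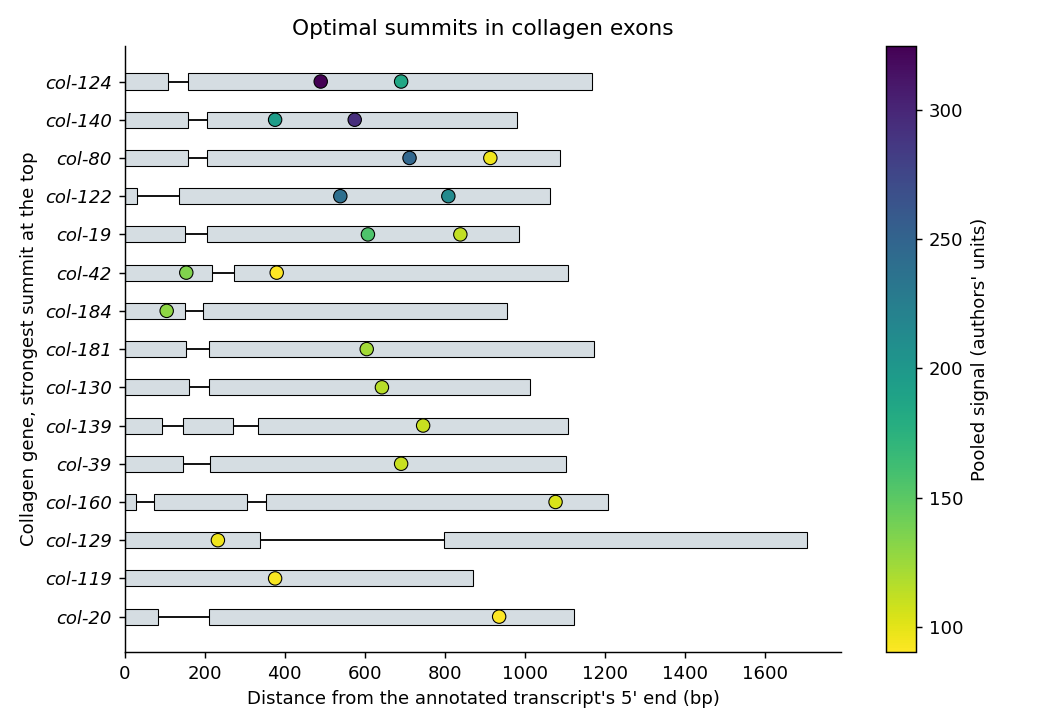
The 15 collagen genes with an exonic optimal summit, drawn from the 5' end of the annotated transcript in bp, with exons as boxes, introns as lines and each summit as a point coloured by its pooled signal in the authors' units. In col-124, col-140, col-80 and col-122 both summits lie in the second exon, and 17 of the 21 summits lie in last exons.

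Last exons of other genes also held strong coding peaks. dos-3, a gene of the DOS family of Notch co-ligands, had 2 summits in its last exon, of 234 and 140, with 150 in replicate 3 and 94.98 in replicate 4 for the pair. Y43F8B.3 had 233, with 178 and 60.0. lelo-2 had 2 summits, of 221 and 142, with 140 and 81.1. stdh-1, a steroid dehydrogenase family gene, had 220 at 104 bp from its 3' end, with 164 and 73.5. In each of these, replicate 3 was the higher. rpl-3, the only cytosolic ribosomal protein gene of 81 with an exonic optimal peak, had 147 in its last exon, with 96.1 and 49.9.

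Some 3' UTR peaks lay beside another gene. Of the 25 in last exons, 10 (40.0%) were in the promoter window of another gene, against 300 of 1000 weaker candidates in the 3' UTR of a last exon. For coding last-exon summits it was 6 of 56 (10.7%) against 18.5%, and over all last exons 16 of 81 (19.8%) against 23.5%. None of these was tested. The strongest, C05D11.8 at III:6421103-6421370, was not among these. It had a signal of 231 with nearly equal replicates, 119.2 in replicate 3 and 116 in replicate 4, and lay 471 bp from the 3' end. lgl-1, a homologue of the fly cell polarity gene lethal giant larvae, had 205, with 133 and 76.2, and its summit was 830 bp upstream of cdo-1. In cdk-5, a cyclin-dependent kinase gene, the 3' UTR summit lay 62 bp upstream of kel-3 and had 180, with 89.2 and 92.0. mstr-1 had 188 in its 3' UTR, at 132 bp upstream of kin-14, in the interval that also held the kin-14 first-exon summit. T28F4.8 had 181 at 155 bp upstream of T28F4.4, with 97.4 and 84.8. That summit also lay in the promoter window of T28F4.8 itself, 438 bp from its 5' end. cept-2 had 135 at 546 bp upstream of vha-13, a gene of the vacuolar proton pump. The 3' UTR summit of T10H9.1, with 128, lay 12 bp upstream of T10H9.8. For these peaks the 3' UTR and the neighbour's promoter are the same sequence and cannot be told apart.

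Of the 217 host genes, 21 had 2 or more exonic summits. mnk-1 and mak-1, both protein kinase genes, had 3. Those of mnk-1 spanned 10144 bp, with 128 in exon 2, 73 bp from an annotated start, 188 in exon 3 and 117 in the 3' UTR of exon 8. Those of mak-1 lay in exons 3 and 6 and spanned 1411 bp, with 114, 127 and 98.6. Metabolic genes with 2 summits were nadk-2, an NAD kinase gene, with 152 and 116, acdh-1, an acyl-CoA dehydrogenase gene, with 141 and 96.7, and aldo-2, an aldolase gene, with 106 and 91.9. drap-1 had 148 in its 5' UTR and 97.4 in exon 3. clec-221, a C-type lectin gene, had 134 and 114, and sdpn-1 had 156 and 117, all 4 in internal exons.

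Each of the other gene groups counted by name had 3 or fewer genes with an exonic peak. The respiratory chain group had 1 of 46 genes, atp-1, and the chaperones 1 of 59, hsp-1, which had 91.0 and was the only exonic peak without a candidate in replicate 3. Histones had 2 of 81 genes, his-37 with 107 and his-41 with 96.2, both in first exons. The interval of his-37 overlapped stronger candidates in both replicates, of 391 in replicate 3 and 201 in replicate 4. Vesicle trafficking genes had 2 of 80, rab-18, a small GTPase gene, with 152, and sec-61.A, a gene of the translocon, with 102. The vacuolar proton pump had 1 of 20, vha-2 with 104. Nuclear hormone receptors had 3 of 269, nhr-114 with 133, nhr-34 with 127 and nhr-105 with 93.1, none in a first exon. Neuropeptide genes had 3 of 140, nlp-24, nlp-76 and nlp-35, with 183, 121 and 118 at their strongest summits. Chromatin and transcription machinery genes had 2 of 109, mdt-26 and the histone deacetylase gene hda-2, with 136 in its 3' UTR. Chemoreceptors had 3 of 1171, srh-2 with 202, srlf-1 with 120 and srg-21, and F-box and MATH genes had 1 of 395, math-33 with 91.4. Of the 6 yolk protein genes, vit-2 had 93.3 in its first exon. Translation factors (40 genes), the proteasome (33), splicing (33), muscle and cytoskeleton (43) and major sperm proteins (31) had 0. The share for all protein-coding genes was 1.09%. Among genes with any exonic candidate, neuropeptides had 3 of 20, histones 2 of 15 and yolk protein genes 1 of 5, against 14.2% of the collagens and 3.51% of all genes. None of these counts was tested.

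Nearly every exonic peak overlapped a candidate in both libraries, as did nearly every other optimal peak. The count was 239 of 240 (99.6%), against 1473 of 1479 (99.6%). The optimal list, thresholded by irreproducible discovery rate, held exactly the 1929 pooled peaks of highest signal. Pooled signal comes from the same 2 libraries, so this overlap is not independent of how the peaks were selected. Of the 240, 159 (66.3%) overlapped 1 of the 1929 strongest of each replicate, against 70.5% of the 1479 other optimal peaks. Replicate signal here is that of the strongest overlapping candidate. In replicate 3 it ran from 33.9 through a median of 80.9 to 469, and in replicate 4 from 14.3 through 48.7 to 284. Replicate 3 was the higher at 219 of the 239, and its value was a median of 1.66 times that of replicate 4, with an SD of 0.57 in log2 units. Whether the libraries differed in depth cannot be read from the files. Spearman's rho between the replicates was 0.46 across the exonic peaks and 0.67 across the other optimal peaks, with the same limits as for the exon classes. The lowest replicate 4 values were 14.3 at a col-42 summit and 16.1 at cest-24 and mstr-1, where replicate 3 had 140, 79.5 and 95.6.

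**Figure D5:**
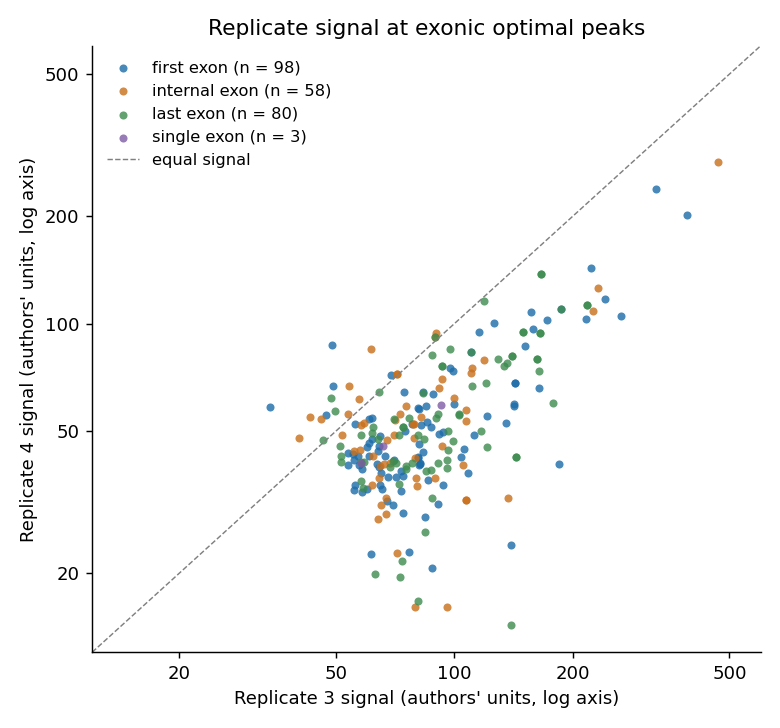
Signal in replicate 4 against replicate 3, in the authors' units on log axes, for the 239 exonic optimal peaks with a candidate in both, coloured by exon position. The dashed line is equal signal. Most points lie below it, and pks-1 is the point of highest signal in both replicates, at 469 and 284.

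The pooled signal of the exonic peaks had a median of 117, against 135 for the other optimal peaks, and 24 of the 240 reached 200. Within 50 bp of the summit, G and C made up a median of 45.0%, against 35.4% in the windows 300 bp to each side. The summit was richer than its flanks in 199 of 240 exonic peaks (82.9%), in 83.2% of the other optimal peaks and in 72.4% of the weaker exonic candidates. The X chromosome held 29 exonic peaks, 12.1% (8.24 to 16.9), against 14.1% of the weaker candidates, which did not pass (odds ratio 0.840, adjusted p 0.564 in Fisher's exact test). The other optimal peaks, with 22.3% on X, were not part of that test. Summits also inside a non-coding RNA gene numbered 4 (1.67%), against 0.707%, which did not pass either (odds ratio 2.38, adjusted p 0.140). These 4 were in F44E7.5, mnk-1, F25B4.4, where the partner is the antisense gene anr-6, and ceh-8.

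Some exonic windows held the words shown above, which were counted without a test. The words were counted on both strands within 50 bp of each summit. The word GAGACGC ends in the 4 bases that begin ACGCAGA, and read on the opposite strand the word CTGCGTC overlaps them both, so these words were also counted as 1 group. That group was in 18 of 240 exonic windows (7.50%), 13.3% of the other optimal windows and 2.32% of the weaker exonic windows. Of the 18, 16 were in first exons (16.3% of those peaks, 9.63 to 25.2), 2 in last exons and 0 in internal exons, where a count of 0 of 58 allows up to 6.16%. In weaker candidates the share with the group was 3.57% in first, 2.23% in internal and 1.73% in last exons. The internal and last-exon counts are too small to be told from these shares. The host genes of the 16 included zip-11 with a signal of 190, drap-1 and lin-52, with 125, a gene of the DREAM repressor complex, and the metabolic enzyme genes fum-1 and pck-2, with 137 and 143.

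GAGACGC alone was in 16 exonic windows (6.67%), and in 3 and 7 of the 240 windows of the same length 300 bp to either side. CTCTCTC was in 18 (7.50%), against 4 and 4 in the flanks, 11.3% of the other optimal windows and 1.62% of the weaker exonic windows. CGCCAGC was in 6 (2.50%), against 1 and 0 in the flanks, 3.79% of the other optimal windows and 0.894% of the weaker ones.

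CACGTGA and CACGTGG share the E-box core CACGTG, which is bound by many basic helix-loop-helix factors. At least 1 of them was in 21 exonic windows (8.75%), 7.71% of the other optimal windows and 3.02% of the weaker exonic windows. It was spread over exon positions, with 7 in first, 7 in internal and 7 in last exons, which is 7.14%, 12.1% and 8.64% of those peaks. In weaker candidates the shares were 2.11%, 3.51% and 2.56%. CACGTGG alone was in 19 exonic windows (7.92%), and in 7 and 7 of the flanks. Hosts with the highest signal were col-140, col-122, at its weaker summit, and lgl-1. Among weaker candidates, at least 1 of the 2 words was in 6.82% of windows in collagen genes and 2.97% of the others. Only Y71F9B.13 had words of both groups. Together, 55 of the 240 windows held at least 1 of the 7 words, so most exonic windows held none.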

How the data were processed

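ZTF-26-GFP ChIP-seq was measured in 2 biological replicates of 1 group. The authors deposited peak lists in narrowPeak format, per the deposited file list: candidates per replicate, candidates from both replicates pooled, and an optimal list by irreproducible discovery rate. The deposited signal value of each peak has no stated scale, and the caller, aligner and threshold are not given in the sources used here. No file gives reads, so depth is unknown. The ce11 lists were used with the Ensembl WBcel235 annotation, release 115, and coordinates are 1-based. The ce10 lists were not used.

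Exon class came from the host transcript of greatest exonic length. The 9623 pooled candidates in exons outside the optimal list, from a list labelled as peaks and background, were the comparison. For the 10 comparisons, Fisher's exact test was two-sided, p-values were adjusted by Benjamini-Hochberg and called at 0.05, with 95% Clopper-Pearson intervals (Python 3.11.15, scipy 1.17.1, pandas 2.3.3). The code was tried on simulated independent counts, which does not cover dependence between neighbouring summits or variation between cultures. Another 14 settings were tried, of which 1 was chosen after seeing the data. Named genes were the 20 exonic peaks of highest signal, the 5 strongest per exon position and part, up to 4 per gene group, genes with 2 or more summits, the 3 peaks on either side of the threshold, ztf-26 and unc-119. Names in the word and replicate paragraphs, the neighbour pairs and the non-coding overlaps were chosen after their values were seen. The peaks, gene groups and words were chosen with earlier results of these data known. A control library was not analysed here.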

Additional observations from a re-analysis of the deposited data

How the results depend on the processing

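Of the 109 odds ratios recomputed under the 14 settings, 99 kept their direction and their side of the threshold. The shares of exonic, first-exon, internal-exon, 5' UTR and promoter-window summits kept both in every setting run, with odds ratios of 0.198 to 0.488, 1.87 to 4.23, 0.147 to 0.438, 2.07 to 6.47 and 1.53 to 3.32. The last-exon share fell short of the threshold with the next candidates by signal as the comparison (1.24) and without collagen genes (1.34). The 3' UTR share, which never passed, turned above 1 with the stronger part of the optimal list, split at its median rank (1.23), summits exonic in every transcript (1.22), interval midpoints (1.21), no collagen genes (1.08) and a single replicate's strongest peaks (1.13 to 1.37). The single-exon share, with 3 peaks, turned below 1 against the next candidates (0.709) and without collagen genes (0.952). Why these turned was not tested.

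With a single replicate's list, replicate 3 and replicate 4 gave odds ratios of 0.301 and 0.438 for exons, 3.49 and 2.59 for first exons and 1.58 and 1.65 for last exons. No paired analysis was possible because there is only 1 group. The files give no read counts, so neither depth nor the precision of a single peak could be stated. With 2 libraries of 1 strain, variation between cultures could not be estimated, and 240 summits in 222 separate stretches are not fully independent.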

Other observations

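Chromosome V held 58 of the 240 exonic peaks (24.2%), against 18.9% of the weaker exonic candidates and 15.1% of the other optimal peaks. By chromosome, between 2.10% (X) and 3.08% (V) of exonic candidates were in the optimal list. These shares were not tested.

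A protein-coding gene on the opposite strand also spanned 21 of the exonic summits (8.75%), against 3.28% of the weaker exonic candidates, and 13 of these were in last exons. Genes with 2 exons were hosts to 37 of the 240 summits (15.4%), against 4.70% of the weaker exonic candidates, and 18 of the 37 were in collagen genes. Both differences are descriptions without a test.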
